A study of Mus musculus with 2 samples.

Results

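Interleukin 1 (IL-1) family cytokines and one IL-10 family cytokine were followed in corneal epithelium of dry and control mouse eyes. The genes were chosen by family and name, with earlier results of these data known: Il1a, Il1b, Il1rn, Il18, Il33, Il1f6 (IL-36 alpha), Il1f9 (IL-36 gamma) and Il24, 8 of the 17891 genes in the table, and all 8 were found. The donors were 7 mice, males of the strain C57BL/6J aged 10 weeks, without a transgene or other allele in the labels. On the right side the extra- and intraorbital lacrimal glands were removed, which deprives the eye of tears, and corneas were taken on day 9. Epithelium of the 7 left eyes made up the control library, and that of 6 right eyes the dry eye library. The animals were thus shared, left and right cannot be told apart from control and dry eye, and the left eye had an operated eye opposite. Each group was 1 pooled library, so no difference could be tested between groups. All intervals below are 95% intervals that cover counting error only.

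IL-1 alpha and IL-1 beta act through the IL-1 receptor and its accessory protein, and Il1rn encodes the antagonist that occupies this receptor without signalling. The IL-36 cytokines use a receptor of their own, encoded by Il1rl2, together with the same accessory protein, and are products of epithelia of the skin and other barriers. IL-18 and IL-33 have separate receptors of the same family, and IL-33 is stored in nuclei of barrier cells. IL-24 belongs to the IL-20 subfamily, which signals to epithelial cells through receptors containing Il20rb or Il22ra1 and through STAT3.

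There were 17465 control cells with 191493194 unique molecular identifiers (UMIs, each counting 1 captured RNA molecule) and 16420 dry eye cells with 207030777, at medians of 8248 and 9086.5 UMIs per cell. Levels are given as CPM, the UMIs of a gene per 1000000 UMIs of the library or class, with no correction for gene length, so they are compared between libraries and classes and not between genes. The authors' table gave each cell 1 of 13 class names. Of these, 5 carry an asterisk (LSC*, TAC1*, TAC2*, Wing* and Squam*), and what the asterisk means is not given in the sources. The classes rest on gene expression, so differences between classes are a description. All 5 markers of corneal differentiation (among them Krt12 and Pax6) were detected, at 39100 CPM summed in control and 34647 CPM in dry eye. The 1 stromal marker in the table, of 5 listed, stood at 0.104 and 0.299 CPM. The same barcode occurred in both libraries 74 times. Genes with UMIs in 1 or 2 cells were rare in both libraries, so a 0 for a whole library may hide counts in about 2 cells.

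Promoters of IL-36 genes are shown first, because the genes of the IL-36 agonists differed most among the IL-1 family cytokine genes described here. Il1f8 (IL-36 beta), Il1f9, Il1f6, Il1f5 (the IL-36 receptor antagonist), Il1f10 (IL-38) and Il1rn follow each other on the plus strand of chromosome 2 in the mouse build GRCm38 (mm10). Of the 8 genes chosen, 6 matched the RefSeq promoter table (build GRCm38.p6). Il1f6 and Il24 had no entry in it, so their promoters are not shown or searched. The lines below give bases upstream of the first annotated start site, 5′ to 3′ on the plus strand. Capitals mark matches to TGANTCA, the AP-1 motif, or to TTCNNNGAA, the STAT motif, searched on both strands.
Il1f8, chr2:24152922-24153160: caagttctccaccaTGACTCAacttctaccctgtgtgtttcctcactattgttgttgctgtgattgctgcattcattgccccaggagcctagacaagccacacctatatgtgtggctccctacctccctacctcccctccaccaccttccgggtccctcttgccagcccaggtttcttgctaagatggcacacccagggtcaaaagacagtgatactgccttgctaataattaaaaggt
Il1f9, chr2:24186226-24186475: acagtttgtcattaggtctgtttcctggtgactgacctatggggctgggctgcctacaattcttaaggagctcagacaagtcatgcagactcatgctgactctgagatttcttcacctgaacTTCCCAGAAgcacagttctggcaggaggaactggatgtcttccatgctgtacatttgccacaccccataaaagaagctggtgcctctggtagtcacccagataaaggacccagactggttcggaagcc
Il1f5, chr2:24276704-24276953: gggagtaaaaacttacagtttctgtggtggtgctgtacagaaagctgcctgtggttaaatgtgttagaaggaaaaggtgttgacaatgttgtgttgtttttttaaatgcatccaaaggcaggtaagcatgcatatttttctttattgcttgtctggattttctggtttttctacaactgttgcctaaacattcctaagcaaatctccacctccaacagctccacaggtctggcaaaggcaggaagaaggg
The Il1f8 promoter held 1 AP-1 match and the Il1f9 promoter 1 STAT match, while the Il1f5 promoter shown held neither. An AP-1 match was in 6.75% of all 32851 promoters in the table, a STAT match in 7.02%, TATAAA in 12.4% and an NF-kB consensus in 7.25%. A second annotated start of Il1f5 had 1 STAT match. Among the other genes, Il1a and 1 of the 3 starts of Il1rn had 1 AP-1 match each, and Il1a, Il1b, Il18 and both starts of Il33 had a TATAAA match. The TATAAA matches began at -32 (Il1a), -31 (Il1b) and -29 (second Il33 start) from the start site. Those of Il18 (TTTATA, on the opposite strand) and the first Il33 start lay farther off, at -175 and -203. The NF-kB consensus had 0 matches in these promoters. A match describes the letters of a window and is not a site of binding, and its part in the levels below was not tested.

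Over all cells, both IL-36 genes and Il24 were far higher in dry eye, Il1b, Il33 and Il1a were higher by smaller factors, and Il18 and the antagonist Il1rn were nearly level. A ratio of 1.5 or more was reached by 5 of the 8 genes in the upward direction, where 7.94% of the 13997 genes with at least 50 UMIs did so, and by 0 in the downward direction, where 5.87% did so. Of the 5, Il24 had 0 UMIs in control and passed the minimum through its 140 dry eye UMIs alone, so it could only count as higher. The median log2 ratio was 0.67 for the 8 genes and -0.07 for all genes. This difference includes the change in the mix of classes, and in a pooled suspension more cells of a type and more RNA per cell cannot be told apart over all cells.

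**Figure D1:**
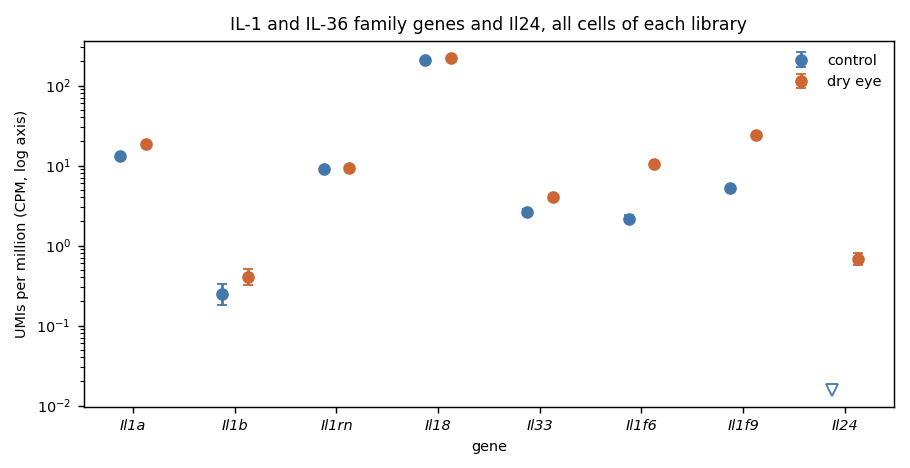
Level of each gene over all cells of the control (blue) and dry eye (orange) library, in CPM on a log axis, with exact Poisson 95% intervals. Il1f6 and Il1f9 stand clearly apart between libraries, Il18 and Il1rn nearly coincide, and the open triangle marks Il24 in control, which had 0 UMIs and is drawn at the floor of 3 UMIs.

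Il1f9 (chromosome 2, 24186476 to 24193568, plus strand, ENSMUSG00000044103.4) encodes IL-36 gamma, an agonist of the IL-36 receptor. It had 998 UMIs (5.21 CPM) in control and 5046 UMIs (24.4 CPM) in dry eye, for a ratio of 4.68 (4.37 to 5.01). Cells with at least 1 Il1f9 UMI numbered 515 in control, or 2.95% (2.70% to 3.21%), and 2052 in dry eye, or 12.5% (12.0% to 13.0%). UMIs per such cell averaged 1.94 and 2.46. In Squam cells they averaged 2.15 and 2.11, and in dry eye LSC*, Wing* and Squam* cells 4.56, 4.10 and 3.94. After each cell was thinned to 3000 UMIs, the shares were 1.34% and 4.92%. Basal cells had an Il1f9 UMI in 0.0236% of control and 0.210% of dry eye cells, which limits what free RNA in the droplets could add, at median depths of 5695 and 6126 UMIs against 9342.5 and 9518 in Squam cells.

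Il1f6 (chromosome 2, 24215418 to 24225702, plus strand, ENSMUSG00000026984.4) encodes IL-36 alpha, which activates the same receptor. It had 416 UMIs (2.17 CPM) in control and 2136 UMIs (10.3 CPM) in dry eye, for a ratio of 4.75 (4.27 to 5.29). The share of cells with a UMI in control was 1.59% (1.41% to 1.78%) and in the dry eye library 6.35% (5.98% to 6.74%), with 0.544% and 2.14% after thinning. In Basal cells Il1f6 had 0 UMIs in 4230 control and in 2857 dry eye cells.

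In control the IL-36 genes belonged mainly to Squam cells. These held 84.4% of the Il1f6 UMIs and 77.4% of the Il1f9 UMIs of that library. In dry eye, Squam and Squam* cells held 57.7% of Il1f6 and 49.5% of Il1f9. Wing and Wing* cells held 32.4% and 30.1% there, where they had held 8.65% and 6.61% in control. Most of the dry eye part lay in Wing* cells, with 582 of 691 Il1f6 UMIs and 1264 of 1521 Il1f9 UMIs. With the starred classes counted in, the distribution over classes was thus wider in dry eye.

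Within Squam cells, of which there were 3056 in control and 2973 in dry eye, Il1f6 was at 10.1 CPM in control and 28.5 CPM in dry eye, for a ratio of 2.81 (2.49 to 3.19). Il1f9 in the same class was at 22.3 and 51.2 CPM, a ratio of 2.29 (2.11 to 2.50). At median depths of 9342.5 and 9518 UMIs, an Il1f9 UMI was found in 359 control cells (11.7%) and 842 dry eye cells (28.3%). In Wing cells the levels were lower and the ratios larger. Il1f6 had 15 UMIs there in control and 109 in dry eye, for a ratio of 9.77 (5.67 to 18.0), and 9 control cells held all 15. Il1f9 had 36 and 257 UMIs in Wing cells, a ratio of 9.59 (6.75 to 14.0). With Wing and Wing* cells joined, the ratios were 21.8 (15.6 to 31.3) for Il1f6 and 26.1 (20.4 to 34.0) for Il1f9. In Conj cells Il1f9 was at 7.45 and 12.2 CPM, a ratio of 1.63 (1.34 to 1.99), and the interval of Il1f6, 1.29 (0.792 to 2.15), included 1.

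In LSC, TAC1* and TAC2 cells the IL-36 genes were near 0 in control. Il1f9 had 5 UMIs in TAC2 control cells and 122 in TAC2 dry eye cells, a ratio of 16.9 (7.06 to 53.1). In LSC cells it had 0 UMIs in 267 control cells and 40 UMIs in 592 dry eye cells, and in TAC1* cells 0 UMIs in 133 and 60 UMIs in 473 cells. Against a floor of 3 UMIs in the control class, the Il1f9 ratio was 4.69 in LSC and 4.72 in TAC1* cells. The lower ends of the intervals were 3.64 and 3.72, and the upper ends were open. Il1f6 in TAC2 cells had 0 and 45 UMIs, of which 42 lay in 10 dry eye cells. With the starred class of the same name joined, Il1f9 had a ratio of 33.4 (14.2 to 104) in TAC2 cells, and in LSC cells it had 1 and 323 UMIs, a ratio of 85.9 (15.3 to 3403).

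**Figure D2:**
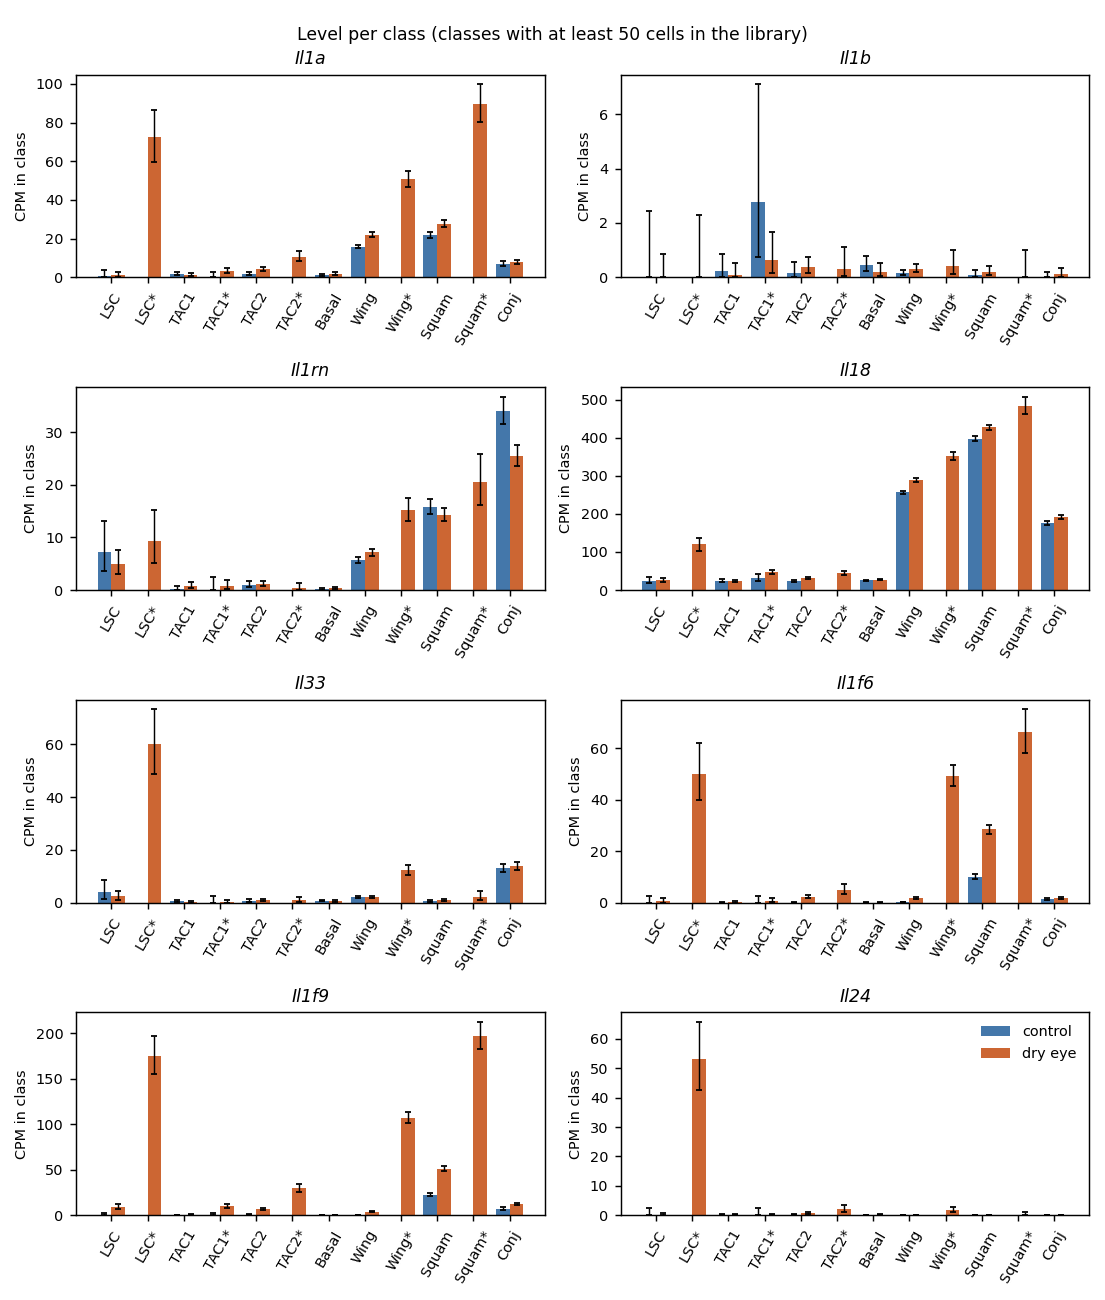
Level of each gene in each class with at least 50 cells in the library, in CPM of that class, as bars from 0 for control (blue) and dry eye (orange) with exact Poisson 95% intervals. Il1f6 and Il1f9 stand in Squam cells of control and, in dry eye, also in LSC*, Wing* and Squam* cells; Il18 follows Wing and Squam cells, Il1rn Conj cells, and Il24 LSC* cells of dry eye.

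The classes with an asterisk were almost absent from control apart from TAC1*: 6 LSC*, 21 TAC2*, 12 Wing* and 0 Squam* cells, against 85, 572, 446 and 217 in dry eye. They held 44.1% of the dry eye library's Il1f6 UMIs, 49.96% of Il1f9, 31.0% of Il33, 29.6% of Il1a, 14.3% of Il1rn and 14.5% of Il18, where they held 14.4% of all UMIs of that library. Within the dry eye library, Il1f9 reached 107 CPM in Wing* against 4.10 CPM in Wing cells, 26.2-fold (22.9 to 30.0). It reached 197 CPM in Squam* against 51.2 CPM in Squam cells, 3.85-fold (3.52 to 4.20), and 175 CPM in LSC* against 9.37 CPM in LSC cells, 18.7-fold (13.4 to 26.7). Il1f6 was at 49.3 CPM in Wing* against 1.74 CPM in Wing cells, 28.4-fold (23.1 to 35.2). Cells of the starred classes were deeper, with medians of 17483.5 UMIs in Wing* against 11815 in Wing and 16145 in LSC* against 5478.5 in LSC, and the part of depth in these values was not tested. With the 5 classes left out of both libraries, the ratio over all cells was 3.24 for Il1f6 and 2.79 for Il1f9. The 12 Wing* cells of control had 21 Il1f6 and 30 Il1f9 UMIs, 108 and 155 CPM, so these levels were also found in the few control cells with that name.

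The 2 genes shared cells. In dry eye, 716 of the 1043 cells with Il1f6 also had Il1f9 (68.6%), against 8.69% of the cells without Il1f6, at median depths of 15141 and 8814 UMIs. In control the shares were 56.7% of 277 cells and 2.08%. Within dry eye Squam cells alone, Il1f9 was found in 62.0% of the 560 cells with Il1f6 and in 20.5% of the others. Median depths there were 13249.5 and 8952 UMIs, and the part of depth was not tested. Across the 20 class and library combinations with at least 50 cells, log2(CPM + 1) of Il1f6 and Il1f9 had a Pearson correlation of 0.94. These points share libraries and cells of different depth, so the value is a description. Among 11111 genes, the nearest pattern to that of Il1f9 was that of Shroom3, which encodes an actin-binding protein of apical constriction (0.96), followed by Mapk6 and Mark4 (0.94 each). For Il1f6 the nearest were Dnajb1, a heat shock protein, and Ube2d3 (0.95 each), and Shroom3 (0.94).

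The neighbours of the 2 genes went separate ways. Il1f8 (24153161 to 24160519) had 617 UMIs (3.22 CPM) in control and 3269 (15.8 CPM) in dry eye, for a ratio of 4.90 (4.50 to 5.35). It followed the same classes, with 10.2 CPM in control Squam, 49.2 CPM in dry eye Squam and 94.3 CPM in dry eye Squam* cells. Il1f5 (24276954 to 24283426), the antagonist of the IL-36 receptor, had 1038 and 1072 UMIs, a ratio of 0.955 (0.876 to 1.04). In Squam cells Il1f5 was at 12.2 CPM in control and 15.5 CPM in dry eye, and in dry eye Squam* cells at 5.22 CPM. Il1f10 had 8 UMIs in control and 0 in dry eye. Over all cells, then, the 3 agonists of the IL-36 receptor were 4.68- to 4.90-fold higher in dry eye, and the interval of their antagonist included 1.

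**Figure D3:**
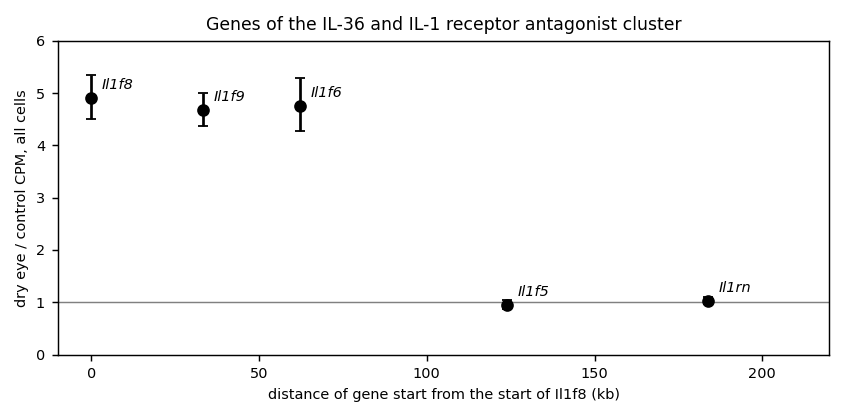
Ratio of dry eye over control CPM over all cells for the genes of the cluster with at least 50 UMIs, with exact 95% intervals, against the distance of the gene's start from the start of Il1f8 in kilobases. Il1f8, Il1f9 and Il1f6 lie between 4.68 and 4.90, and Il1f5 and Il1rn lie near 1.

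Il1rn (24336853 to 24351494, plus strand, ENSMUSG00000026981.15), the last gene of this cluster, had 1757 UMIs (9.18 CPM) in control and 1942 UMIs (9.38 CPM) in dry eye. The ratio of 1.02 (0.958 to 1.09) hid unequal classes. In Conj cells, where its level was highest, Il1rn was at 34.1 CPM in control and 25.5 CPM in dry eye, for a ratio of 0.748 (0.671 to 0.833). In Wing cells it was at 5.69 and 7.16 CPM, a ratio of 1.26 (1.10 to 1.43), and in Squam cells the ratio of 0.905 (0.800 to 1.02) had an interval that included 1. In dry eye, Wing* cells had 15.2 CPM and Squam* cells 20.6 CPM, above Wing at 7.16 and Squam at 14.3. Cells with an Il1rn UMI were 31.4% of control and 26.0% of dry eye Conj cells, and 10.9% and 7.67% after thinning to 3000 UMIs. The pattern most like that of Il1rn was that of Krt19, a keratin found in conjunctiva and in simple epithelia (0.98), with Upp1 and Dnajb3 at 0.96 each.

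Il1a (chromosome 2, 129299610 to 129309972, minus strand, ENSMUSG00000027399.1) encodes IL-1 alpha, which is active as its precursor and is released by damaged cells. It had 2521 UMIs (13.2 CPM) in control and 3824 UMIs (18.5 CPM) in dry eye, for a ratio of 1.40 (1.33 to 1.48). Wing cells were at 15.9 and 22.1 CPM, a ratio of 1.40 (1.29 to 1.51), and Squam cells at 21.7 and 27.6 CPM, a ratio of 1.27 (1.15 to 1.40), or 1.54 (1.41 to 1.69) with Squam* cells joined. The Conj ratio of 1.09 (0.876 to 1.36) had an interval that included 1, and in TAC2 cells the 24 and 82 UMIs gave 2.37 (1.49 to 3.91). Free RNA was bounded by the gene's mean count per cell (upper 95% limit) in its lowest class, and with this bound taken off the higher level the TAC2 ratio was 1.44. To lie beyond the bound, the lower 95% limit left of the higher level had to exceed the upper 95% limit of the other. This did not hold for Il1a in TAC2 cells. Among dry eye classes with at least 50 cells, Il1a was highest in Squam* (89.6 CPM), LSC* (72.3 CPM) and Wing* cells (50.9 CPM). The 31 Immune cells had 3 Il1a UMIs. LSC cells of the same library had 5 Il1a UMIs (1.17 CPM), so LSC* cells stood 61.7-fold higher (25.7 to 194). In control, 12 Wing* cells held 206 of the 2521 UMIs, 69 of them in 1 cell. These 206 were among 193663 UMIs of all genes, where dry eye Wing* cells had 600 among 11796148. The Il1a level was thus higher in the few control cells with that name than in those of dry eye. The gene overlaps Gm14023 on the other strand, and the reads of the pair cannot be told apart here, since the sources do not say whether strand was used in counting. Pkp3, a desmosome protein, had the pattern most like that of Il1a (0.97), followed by Capzb and Arf6 (0.96 each).

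Il1b (chromosome 2, 129364570 to 129371139, minus strand, ENSMUSG00000027398.13) encodes IL-1 beta, which caspase 1 cuts to its active form. It was sparse, with 47 UMIs in 43 control cells and 84 UMIs in 59 dry eye cells, 0.245 and 0.406 CPM, a ratio of 1.65 (1.14 to 2.42). Immune cells were its main place by level, with 21.3% of its UMIs in control and 36.9% in dry eye. In control, 7 of 20 Immune cells held 10 UMIs (282 CPM), and in dry eye 7 of 31 Immune cells held 31 UMIs (620 CPM), 10 of them in 1 cell. No other class with at least 50 cells exceeded 2.77 CPM. In this class 7 of the 8 macrophage and dendritic markers had UMIs in each library, summing to 56346 CPM in control and 41355 CPM in dry eye, while the 3 neutrophil markers in the table (Cxcr2, Ly6g and Mmp8) were at 0 in both. Of the 5 T cell markers in the table, 0 had UMIs in control Immune cells and 4 in those of dry eye, 240 CPM summed, and the part of this mix in the Il1b level was not tested. The Immune class had median depths of 1351 and 918 UMIs. Without it the Il1b ratio was 1.33, below 1.5. Il1b overlaps Il1bos on the other strand, with the same limit as for Il1a. Its nearest patterns, Zfp967 (0.72), Tubgcp6 (0.71) and Top3a (0.69), were weak, and they rest on few counts.

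Il18 (chromosome 9, 50554827 to 50581840, plus strand, ENSMUSG00000039217.13), whose product is also matured by caspase 1, had 40369 UMIs (211 CPM) in control and 46215 UMIs (223 CPM) in dry eye, for a ratio of 1.06 (1.04 to 1.07). Its level followed the layers of the epithelium. In control it was 25.4 CPM in Basal, 257 CPM in Wing and 398 CPM in Squam cells, and in dry eye 27.5, 290 and 428 CPM in the same order. The low classes, LSC, TAC1, TAC2 and Basal, lay between 22.5 and 32.0 CPM over both libraries. The intervals of LSC, TAC1, TAC2 and Basal overlapped in control. The ratio was 1.13 (1.10 to 1.15) in Wing, 1.08 (1.05 to 1.10) in Squam, 1.08 (1.04 to 1.13) in Conj and 1.40 (1.22 to 1.61) in TAC2 cells, where the level was low. After the bound on free RNA was subtracted from the higher level, these ratios were 1.08, 1.03, 0.999 and 0.541. By the rule on limits given for Il1a, only that of Wing cells lay beyond the bound. Dry eye Wing* and Squam* cells, at 353 and 485 CPM, were 1.22-fold (1.18 to 1.26) and 1.13-fold (1.08 to 1.19) above Wing and Squam cells. Il18 overlaps Bco2 and Tex12 on the other strand. Rhod, Sdr9c7, an enzyme of the skin lipid barrier, and Mindy3 had the patterns most like that of Il18 (0.98 each).

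Il33 (chromosome 19, 29925114 to 29960718, plus strand, ENSMUSG00000024810.16) had 498 UMIs (2.60 CPM) in control and 826 UMIs (3.99 CPM) in dry eye, for a ratio of 1.53 (1.37 to 1.72). In Conj and Wing cells the level was close: 13.1 and 13.7 CPM in Conj cells, a ratio of 1.05 (0.890 to 1.23), and 2.04 and 2.23 CPM in Wing cells, a ratio of 1.09 (0.869 to 1.38). With Wing and Wing* cells joined the ratio was 1.87 (1.54 to 2.28). In control, Conj cells held 53.8% of its UMIs. In dry eye, Wing* cells reached 12.2 CPM, 5.47-fold above Wing cells (4.31 to 6.95), and LSC* cells 59.96 CPM, 25.6-fold above LSC cells (13.3 to 55.1). The LSC* value came from 97 UMIs in 15 of 85 cells, 36 of them in 1 cell. Leaving out the starred classes gave a ratio of 1.22 over all cells, and weighting the dry eye classes to the control shares of classes gave 1.07. Spag9 (0.88), Tec (0.86) and Rab24 (0.85) had the patterns most like that of Il33.

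Il24 (chromosome 1, 130882074 to 130887454, minus strand, ENSMUSG00000026420.16) had 0 UMIs in the 17465 control cells, which allows a share of cells with a UMI of up to 0.0172% (3 cells), apart from counts in about 2 cells that the table may hide. The dry eye library had 140 UMIs in 33 cells, 0.201% (0.138% to 0.282%), or 0.676 CPM. Against the floor of 3 UMIs in control, the ratio was 43.2, which does not cover counts that the table may hide. The 10 cells with most counts held 70.7% of the UMIs, and 1 cell held 15. LSC* cells held 86 UMIs in 14 of 85 cells (53.2 CPM), where the 592 LSC cells of the same library had 0. The other cells were 6 Wing* (22 UMIs), 5 TAC2* (13 UMIs), 3 TAC2 (13 UMIs), 3 Wing (4 UMIs), 1 Basal and 1 Conj (1 UMI each). Squam, Squam* and Immune cells had 0. All 6 limbal markers were detected in dry eye LSC* cells, at 18318 CPM summed, against 16008 CPM in LSC and 16000 CPM in Conj cells, so the list does not mark LSC cells alone. The 6 mitosis markers summed to 339 CPM in dry eye LSC* and 45.7 CPM in LSC cells, and the 6 superficial markers to 890 and 242 CPM, and their part in the LSC* levels was not tested. LSC* cells with Il24 had a median of 26274 UMIs, against 16145 for all LSC* cells. Of the 14 LSC* cells with Il24, 12 also had Il1f9 (62 of all 85 LSC* cells did), 11 had Il1a (46 of 85), 11 had Il18 (61 of 85) and 8 had Il1f6 (33 of 85). Il1rn was in 4 (12 of 85) and Il33 in 3 (15 of 85). The patterns most like that of Il24 were those of the matrix metalloproteinases Mmp10 (0.98) and Mmp13 (0.97) and of Fxyd5 (0.96), and with most points at or near 0 these values rest mainly on LSC* cells.

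Within the 3 largest differentiated classes the counts were as follows. In Wing cells 3 of the 7 genes with at least 20 UMIs were at least 1.5-fold higher in dry eye and 0 lower, where 6.36% of all genes were higher and 7.96% lower. The 3 were Il1f6, Il1f9 and Il1b, and the Il1b ratio of 1.92 had an interval (0.922 to 4.11) that included 1. In Squam cells 3 of 6 were higher and 0 lower, where 5.34% of all genes were higher and 16.4% lower. They were Il1f6, Il1f9 and Il33, the last from 18 and 33 UMIs with a ratio of 1.83 (0.998 to 3.44). In Conj cells 1 of 6, Il1f9, was higher and 0 lower, where 4.89% of all genes were higher and 3.11% lower.

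**Figure D4:**
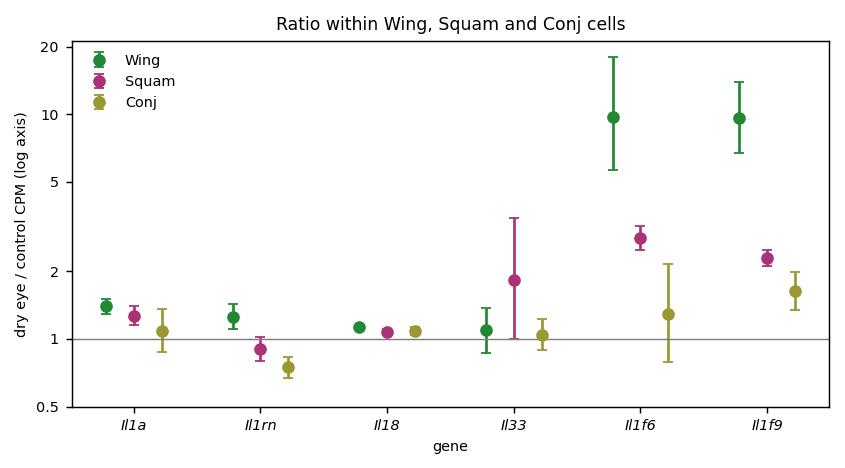
Ratio of dry eye over control CPM within Wing, Squam and Conj cells on a log axis, with exact 95% intervals and a line at 1, for the 6 genes with at least 20 UMIs in each of the 3 classes. Il1f6 and Il1f9 lie highest in Wing cells (9.77 and 9.59), and Il1rn lies above 1 in Wing and below 1 in Conj cells.

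Of the 9 receptors and decoys listed, 8 were in the table and 7 had at least 50 UMIs. Of these 7, 0 were 1.5-fold higher or lower, where 7.94% of all genes were higher and 5.87% lower. The median log2 ratio was -0.12, against -0.07 for all genes. Below the minimum of 50 UMIs, Il18rap, a subunit of the IL-18 receptor named after its values were seen, had 0 UMIs in control and 28 in dry eye, 12 in Wing* and 12 in Squam* cells. Il1rl2, the IL-36 receptor, had 1815 UMIs (9.48 CPM) in control and 2294 UMIs (11.1 CPM) in dry eye, for a ratio of 1.17 (1.10 to 1.24). By class, Il1rl2 was at 20.4 and 20.3 CPM in Conj and at 12.1 and 12.8 CPM in Squam cells. Dry eye Squam* cells had 26.1 CPM of Il1rl2. The accessory protein Il1rap had a ratio of 0.914 and the IL-1 receptor Il1r1 one of 0.874. Among the 7, the highest ratios belonged to Il18bp, the soluble decoy of IL-18 (1.43), and Il1r2, the decoy receptor of IL-1 (1.21), and the lowest to Sigirr, an inhibitory receptor of the family (0.704), and Il1r1. Il1rl1, the IL-33 receptor, was the listed gene that was not in the table, so no level can be given.

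Among 20 genes of IL-1 receptor signalling, all with at least 50 UMIs, 1 was 1.5-fold higher and 0 lower, where 7.94% and 5.87% of all genes were, with a median log2 ratio of -0.11. The gene that was higher was Irak3, a kinase-dead inhibitor of the pathway, with 97 and 215 UMIs and a ratio of 2.05 (1.61 to 2.63). Squam cells had 1.82 CPM of Irak3 in control and 3.80 CPM in dry eye. Zc3h12a, an RNase that degrades cytokine transcripts, stood at 1.46. The lowest ratios were those of Irak2 (0.731) and Peli2 (0.789), and the adaptor Myd88 was at 1.15.

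Of 24 genes of cytokine processing and release, 20 were in the table and 14 had at least 50 UMIs. Of these 3 were 1.5-fold higher and 1 lower, beside the same shares of all genes, with a median log2 ratio of 0.09. Casp4, the caspase that senses lipopolysaccharide in the cytosol, had 7 UMIs in control and 81 in dry eye, for a ratio of 10.7 (4.96 to 27.5), and 4.58 without the starred classes. Gsdma, a pore-forming gasdermin whose close paralogs may share its reads, had 225 and 636 UMIs, a ratio of 2.61 (2.24 to 3.06), and was at 16.4 CPM in dry eye Wing* against 3.33 CPM in Wing cells. Casp1, the IL-1 beta and IL-18 convertase, had 61 and 120 UMIs, a ratio of 1.82 (1.33 to 2.52). P2rx7, an ATP-gated channel that triggers IL-1 beta release, was lower, with a ratio of 0.659 (0.574 to 0.756), and Capn1, a calpain, stood at 0.878.

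On the side of IL-24, 14 of 16 genes of the IL-20 subfamily, its receptors and JAK-STAT signalling were in the table and 11 had at least 50 UMIs, of which 2 were 1.5-fold higher and 0 lower, beside the same shares of all genes, with a median log2 ratio of -0.08. Socs3, the feedback inhibitor induced by STAT3, had 192 UMIs in control and 1698 UMIs in dry eye, for a ratio of 8.18 (7.04 to 9.55). It was highest in dry eye TAC2* cells (70.5 CPM) and at 63.7 CPM in dry eye LSC* cells, and without the starred classes its ratio was 2.32. Socs1 stood at 1.53. The receptor subunit Il20rb was lower in dry eye, at 16.9 and 11.8 CPM with a ratio of 0.698 (0.662 to 0.736), and was at 19.8 CPM in control and 14.3 CPM in dry eye Wing cells. Il22ra1 had 9 and 16 UMIs.

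**Figure D5:**
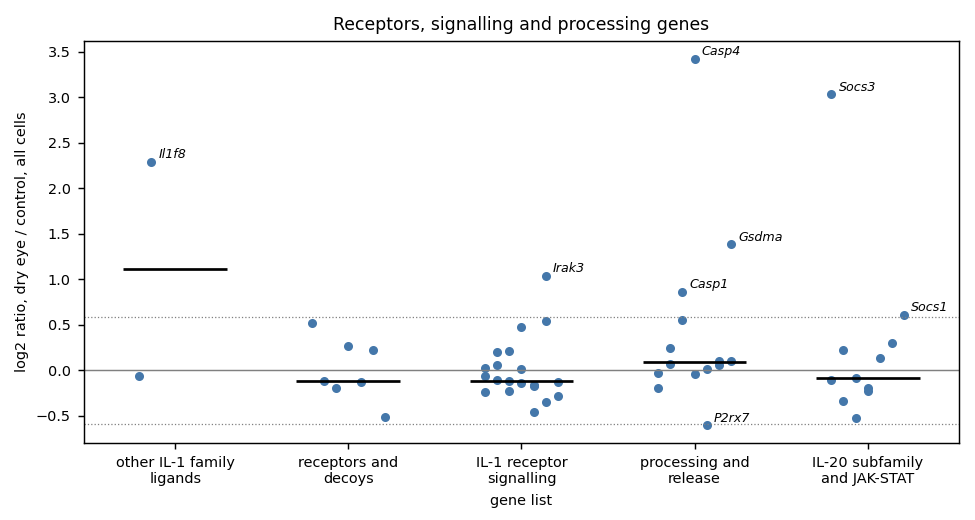
Log2 ratio of dry eye over control CPM over all cells for each gene of the 5 lists with at least 50 UMIs, with the list's median as a bar and dotted lines at 1.5-fold. Names are given past that fold: Il1f8, Irak3, Casp4, Gsdma, Casp1, Socs3 and Socs1 above, P2rx7 below, and no receptor or decoy past either line.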

How the data were processed

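Per the labels' protocols, corneal epithelium was released with an enzyme, dissociated with trypsin and made into 1 library per group with the Chromium 3' v3.1 kit of 10x Genomics. Per the submitters' processing notes, the tools were Cell Ranger 6.0.1 and Seurat 4 and the build mm10. The authors deposited raw UMI counts per gene and cell, and a table with the library and class of each of the 33885 cells. The sources used here do not give how cells were filtered or classed.

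Counts were summed per library and class and divided by the total to give CPM, where 1 UMI was worth 0.00522 CPM in control and 0.00483 CPM in dry eye. Ratios have exact 95% Clopper-Pearson intervals from the split of the counts, sums exact Poisson intervals, and a 0 was replaced by a floor of 3 UMIs. UMIs are not independent replicates of a condition, and no p-value was computed. Ratios over all cells needed 50 UMIs over both libraries. Ratios within a class needed 20 UMIs over both libraries and 100 cells in each library. Ratios with a starred class joined to, or set against, the class of the same name needed 20 UMIs in total and had no minimum of cells. Free RNA was not removed, and no doublet caller was run. Thinning to 3000 UMIs dropped the shallower cells, 1094 of control and 784 of dry eye. Trimmed mean of M values scaling used edgeR 4.0.16, and the rest Python 3.11.15 with scipy 1.17.1. Coordinates are from GENCODE M21, 1-based.

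The genes and lists were chosen with earlier results of these data known. All 8 genes are named, with the 2 highest and 2 lowest ratios of each list, 8 genes whatever their values (Il1r1, Il1rap, Il1rl2, Il1rl1, Il20rb, Il22ra1, Casp1 and Myd88), and the 3 genes of most similar pattern per gene, among genes with at least 200 UMIs. For the IL-20 and JAK-STAT list, 1 of these genes is not reported here. On simulated counts, the interval held the true ratio in 95.7% of 13797 unchanged genes, and in 97% and 92% of 100 genes each at ratios of 2 and 0.5. The counts were drawn as independent Poisson counts, as the intervals assume, so this check does not cover UMIs clumped in few cells.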

Additional observations from a re-analysis of the deposited data

Results flagged for a closer look

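Il1rn differed in direction between classes. In Wing cells its ratio of dry eye over control CPM was 1.26 (1.10 to 1.43), and in Conj cells it was 0.748 (0.671 to 0.833). The intervals lie on opposite sides of 1, and each group was 1 library. The difference between the classes was not tested. Leaving out the 10 cells with most counts gave 1.28 and 0.751.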

How the results depend on the processing

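For each gene 8 alternatives were run over all cells. The lowest and highest ratios were 1.24 and 1.51 for Il1a, 1.33 and 1.97 for Il1b, 0.923 and 1.12 for Il1rn, 1.05 and 1.11 for Il18, 1.07 and 1.60 for Il33, 2.71 and 5.17 for Il1f6, 2.37 and 5.02 for Il1f9, and 6.77 and 45.0 for Il24 against its floor. Il1f6, Il1f9 and Il24 were at least 1.5-fold higher under all 8, Il1b under 5 and Il33 under 4. The number of genes at least 1.5-fold higher was 3 in place of 5 when dry eye classes were weighted to the control shares of classes, and 3 with a minimum of 200 UMIs, which leaves out Il1b and Il24. Under the other alternatives it was 4 or 5, and the number at least 1.5-fold lower was 0 under each. The share of all genes at least 1.5-fold higher fell too, from 7.94% to 4.56% with weighted classes. It was 6.34% without the starred classes and 5.97% with a minimum of 200 UMIs. Within classes, without the 10 cells with most counts, the ratio of Il1a in TAC1* cells was 0.689 and that of Il1f6 in TAC2 cells 0.701, both against a floor. With a bound on free RNA subtracted from the higher level, Il1a in TAC1* was at 0.908, Il1b in Wing at 0.754 and Il33 in Squam at 0.692. The Il1a value is again against the floor, as control TAC1* cells had 0 Il1a UMIs. Processing genes 1.5-fold higher numbered 1 in place of 3 with at least 200 UMIs. The 1 processing gene that was lower no longer passed without the starred classes or with weighted classes, and 1 in place of 2 IL-20 and JAK-STAT genes was then higher. No paired analysis was possible because each group was 1 pooled library. Il1b and Il24 rest on 131 and 140 UMIs over both libraries.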
